A study of Mus musculus with 6 samples.

Results

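The 7 E2f transcription factors E2f1, E2f2, E2f3, E2f4, E2f5, E2f7 and E2f8 and the 3 pocket proteins Rb1, Rbl1 and Rbl2 were examined in mouse embryonic stem cells. They were taken by symbol, and all 10 were found among the 18312 genes of the deposited table. The E2f family has other members, which were not analysed here. The study sought the mRNAs bound by Brf1 (Zfp36l1) and Brf2 (Zfp36l2), zinc finger proteins that bind AU-rich elements and recruit mRNA decay enzymes. Its 6 libraries came from wild-type E14 cells, a line of 129/Ola background grown in medium with 15% serum and 1000 U/ml LIF. They fall into 3 groups of 2, which are RNA that was not immunoprecipitated, RNA precipitated from cytoplasmic extract with an antibody that recognises Brf1 and Brf2, and RNA precipitated with non-specific rabbit IgG. All 3 groups share the cell line, the genotype and the medium.

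The table holds 1 profile with 22625281 counts, and nothing in it names a library or a group. It may therefore hold input RNA, immunoprecipitated RNA or a pool, so the comparison of Brf precipitate with IgG was not made, and a level below is not a measure of binding. There are no replicates. Levels are in FPKM, counts scaled to the total count and to an effective length, the model length after the authors' correction, and the interval after each is the authors' own, which spans 2 SD of counting error on either side. In a bulk profile, fewer cells of a type and less RNA per cell cannot be told apart. Markers of the labelled cell type were present, from 40.6 FPKM for Esrrb to 605 for Pou5f1 over 5 genes (62.5 and 919 on the model length). Of 5 fibroblast, 3 primitive endoderm and 2 neural markers found in the table, 2 had at least 1 FPKM, against 56.0% of all genes. These were Thy1 at 3.74 and Pax6 at 2.38. The fibroblast marker Col1a1 lay just below, at 0.902 FPKM from 199 counts (1.87 on the model length). Postn had 0 counts, which allows up to 0.0324 FPKM.

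E2f factors bind promoters of genes for DNA synthesis and cell cycle entry, most of them as dimers with a DP protein. E2f1, E2f2 and E2f3 are known as activators, E2f4 and E2f5 mainly as repressors that work with pocket proteins, and E2f7 and E2f8 as atypical repressors that bind DNA without a DP partner. The pocket proteins Rb1, Rbl1 (p107) and Rbl2 (p130) bind E2f factors and silence their targets until cyclin-dependent kinases phosphorylate them. Embryonic stem cells are known for a short G1 phase in which pocket proteins are held largely phosphorylated.

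Because the study concerned proteins that bind AU-rich elements, the 3′ untranslated region of each member was searched for TATTTAT on the sense strand, counting overlapping matches. Sequences are from GENCODE M21 (GRCm38), the longest region of each gene. There were 9 matches in 6 of the 10 members, and 29.2% of the 17528 genes with a region have at least 1. E2f1 had 3 matches, E2f3 had 2, and E2f2, E2f7, E2f8 and Rbl2 had 1 each. E2f4, E2f5, Rb1 and Rbl1 had none. The regions of the members were longer than usual, with a median of 1506 nt against 1050 over all genes. Among the 9623 genes whose region lies within the members' range of 592 to 3328 nt, 34.0% have a match. The sites of E2f1, of E2f7 and of Rbl2 are shown because E2f1 has the most, E2f7 is the only other member with the longer TTATTTATT and Rbl2 is the only pocket protein with a match. Capitals mark the match.
E2f1, bases 638 to 648 after the stop codon: atggagcgttTATTTATTTATcgaggcctc
E2f1, bases 772 to 778: ccaagcagttTATTTATtgggaaaggg
E2f7, bases 432 to 438: cctatggtatTATTTATttttgtccct
Rbl2, bases 755 to 761: gtttgctgtaTATTTATgatggcactt
The first E2f1 site holds 2 overlapping matches. The shorter element ATTTA occurred in all 10 members, where 67.5% of genes have it and 81.8% of those within the members' length range, with 11 copies in Rb1 and 2 in E2f5. Rb1 thus had the most ATTTA copies of the 10 and no TATTTAT. The longer TTATTTATT was found in E2f1, at 2 positions, and in E2f7, at 1, and 8.06% of genes have it. The shortest annotated region of E2f7 has 167 nt, less than the distance of its site from the stop codon. With the shortest region of each gene, 1 member had TTATTTATT, against 5.39% of genes. These matches are letters in an annotated region, which was not checked to be the region transcribed in these cells.

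Seed matches of microRNAs were searched in the same regions, a search added after the levels had been seen. The miR-290 cluster is abundant in mouse embryonic stem cells and the miR-17 cluster is known for targeting E2f factors. The mature sequences are from RefSeq (GRCm38.p6), and capitals mark the seed, bases 2 to 8.
mmu-miR-294-3p: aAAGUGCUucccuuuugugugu
mmu-miR-17-5p: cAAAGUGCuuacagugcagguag
mmu-miR-291a-3p and mmu-miR-295-3p share the seed of mmu-miR-294-3p, and mmu-miR-20a-5p shares that of mmu-miR-17-5p. The seeds are offset by 1 base, so a site with both matches in its letters counts for both. The match to the miR-17 seed, GCACTTT, occurred in 7 of the 10 members, 9 times in all, and 12.6% of genes have it. The members without it were E2f4, E2f7 and E2f8. The match to the miR-294 seed, AGCACTT, occurred in 5 members, E2f2 (2 sites), E2f5, E2f7, Rbl1 and Rbl2, and 15.7% of genes have it. Within the members' range of region lengths the shares were 13.9% and 17.1%. The joined site was present in E2f2, E2f5 and Rbl1, and E2f4 and E2f8 had neither match. Rbl1 and Rbl2 are shown as the pocket proteins with matches to both seeds, at 1 joined site in Rbl1 and at separate sites in Rbl2.
Rbl1, bases 22 to 28, miR-294 match: gcctgatcaaAGCACTTttggattgtt
Rbl2, bases 1384 to 1390, miR-294 match: ttttcaataaAGCACTTataaatta
Rbl2, bases 705 to 711, miR-17 match: gtaattggtgGCACTTTatggctgtaa
Rbl2, bases 766 to 772, miR-17 match: atttatgatgGCACTTTctatggtgtg
The second of the miR-17 matches in Rbl2 begins 5 bases after the end of its TATTTAT. The miR-294 match of Rbl2 lies close to the end of its region of 1398 nt, and the shortest annotated region of Rbl2 has 1171 nt.

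**Figure D1:**
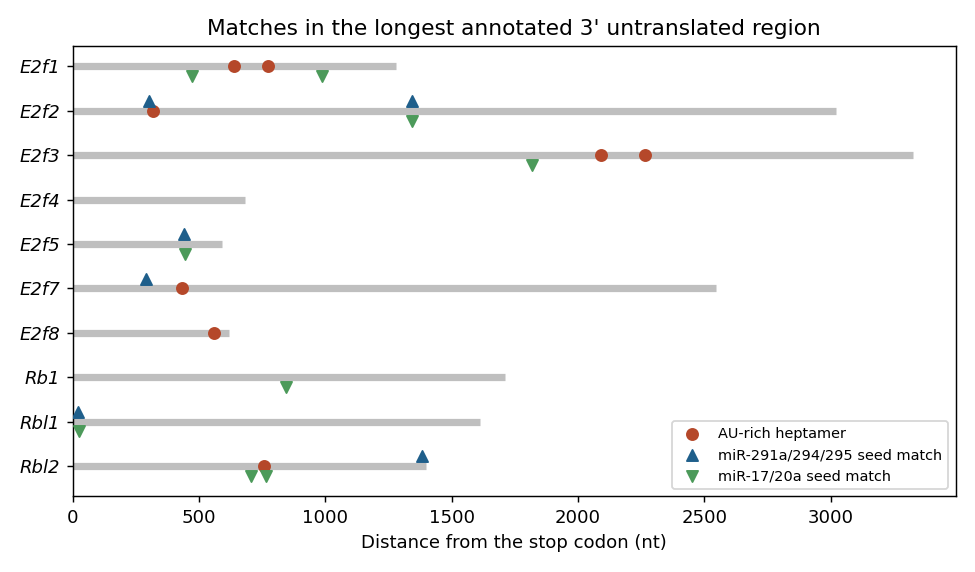
Positions of the matches along the longest annotated 3′ untranslated region of each member, in nt from the stop codon (grey bars are the regions, circles the AU-rich heptamer, triangles the first base of each microRNA seed match). The first circle of E2f1 stands for 2 overlapping matches, and E2f4 carries no symbol.

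Several E2f genes are textbook targets of E2f factors themselves, so the RefSeq promoter windows (GRCm38.p6, 250 bases before to 50 after each start) were searched for TTTCGCGC, TTTGGCGC and TTTCCCGC on both strands. No 2 of the matches found in members overlap. Windows were found for 7 members, E2f1, E2f2, E2f3, E2f7, E2f8, Rbl1 and Rbl2. Of these 7, 4 had a match, and 2.90% of the 13506 genes of the table with a window do. The 4 windows are shown around the match, which is in capitals, read along the gene.
Rbl1, chr2:157204485-157204784, minus strand, from 18 bases before the start: aagaaggcgatTTTCGCGCgctttgtcgcg
E2f2, chr4:136172024-136172323, plus strand, from base 40 after the start: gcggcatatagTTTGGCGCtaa
E2f3, chr13:29986014-29986313, minus strand, from 11 bases before the start: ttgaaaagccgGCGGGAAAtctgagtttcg
E2f7, chr10:110745189-110745488, plus strand, from 198 bases before the start: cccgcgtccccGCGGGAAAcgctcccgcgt
In E2f3 and E2f7 the letters shown are TTTCCCGC read on the opposite strand. E2f2 and E2f3 each have 2 windows, and the other window of each had no match. Of 21 G1/S target genes of E2f with a window, 10 had a match. A match is a description of letters and not a binding site measured in these cells.

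All 10 members had at least 1 FPKM, against 56.0% of all genes, and all 10 had at least 10 counts, against 70.6%. When counts were divided by the plain model length rather than the authors' effective length, all 10 again reached 1 FPKM, against 58.2%. Of the members, 8 had at least 5 FPKM, against 38.3%. Their median was 8.64 FPKM, beside 1.94 over all genes and 9.66 over genes with at least 1 FPKM. Together they held 12406 counts, 0.0548% of the total (Wilson 95% interval 0.0539 to 0.0558, counting error only). The members spanned 58.5-fold in level, from E2f4 at the top to Rbl2 at the bottom.

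E2f4 had 66.5 FPKM (64.5 to 68.5), from 4265 counts on a model of 1993 nt, and ranked 920th among all genes. E2f5, the closest relative of E2f4, had 20.2 FPKM (18.9 to 21.6) from 910 counts on a model of 1749 nt. The ratio of E2f4 to E2f5 was 3.29, with an exact binomial 95% interval of 3.06 to 3.53. E2f4 was also 4.43 times E2f3 (4.19 to 4.67), which came next after E2f5 among the 7. On the model length E2f4 was 5.61 times E2f3 (5.32 to 5.92). E2f4 alone made up 50.2% of the summed level of the 7 E2f factors, and with E2f5 the share was 65.4%.

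Among the activators, E2f3 had 15.0 FPKM (14.3 to 15.7, 1944 counts), E2f1 had 9.15 (8.47 to 9.83, 726 counts) and E2f2 had 2.42 (2.19 to 2.66, 417 counts). E2f3 was thus 1.64 times E2f1 (1.51 to 1.79) and 6.20 times E2f2 (5.58 to 6.91). On the model length these ratios were 1.29 (1.19 to 1.41) and 4.33 (3.90 to 4.83), so their size depends on the length used. E2f1, the founding member of the family and also known for driving apoptosis, was 3.78 times E2f2 (3.34 to 4.27), and 3.35 times on the model length (2.97 to 3.79). The gene E2f3 makes 2 products from separate promoters, E2f3a and E2f3b, which the table does not separate, since it holds 1 model per symbol. The 3 activators summed to 26.6 FPKM (25.6 to 27.6), beside 86.7 (84.3 to 89.2) for E2f4 and E2f5.

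The atypical repressors were close to each other. E2f8 had 11.1 FPKM (10.5 to 11.7, 1262 counts) and E2f7 had 8.13 (7.70 to 8.56, 1447 counts). E2f7 had more counts than E2f8 but a longer model, 5476 nt against 3691 nt. E2f8 was 1.36 times E2f7 on the effective length (1.26 to 1.47) and 1.29 times on the model length (1.199 to 1.396). Their sum was 19.2 FPKM (18.5 to 19.98), below that of the activators.

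The pocket proteins were lower than most E2f factors. Rb1, the retinoblastoma protein, had 6.40 FPKM (5.87 to 6.93, 588 counts). Rbl1, the relative known to be prominent in cycling cells, had 5.71 (5.28 to 6.15, 688 counts). Rbl2, the relative known to accumulate in quiescent cells, had 1.14 (0.956 to 1.32, 159 counts) and ranked 10060th. Rbl1 was 5.03 times Rbl2 (4.22 to 6.01), and Rb1 was 5.64 times Rbl2 (4.72 to 6.76). On the model length these ratios were 4.33 (3.64 to 5.18) and 3.91 (3.27 to 4.69). The 3 pocket proteins summed to 13.2 FPKM (12.5 to 14.0), and the 7 E2f factors summed to 132.6 FPKM (129.8 to 135.3), 10.01 times as much.

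In the order of levels, E2f4, E2f5, E2f3, E2f8, E2f1, E2f7, Rb1, Rbl1, E2f2 and Rbl2, the intervals of 2 neighbouring pairs overlapped. These were E2f1 with E2f7 and Rb1 with Rbl1. The ratio of E2f1 to E2f7 was 1.13, with an exact interval of 1.03 to 1.23. For Rb1 over Rbl1 it was 1.12, with an interval of 1.003 to 1.25. The intervals of the other 7 neighbouring pairs did not overlap. Raw counts gave another order, with E2f3 and E2f7 in the second and the third place and E2f5 in the fifth, because the models run from 1749 nt for E2f5 to 5476 nt for E2f7.

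**Figure D2:**
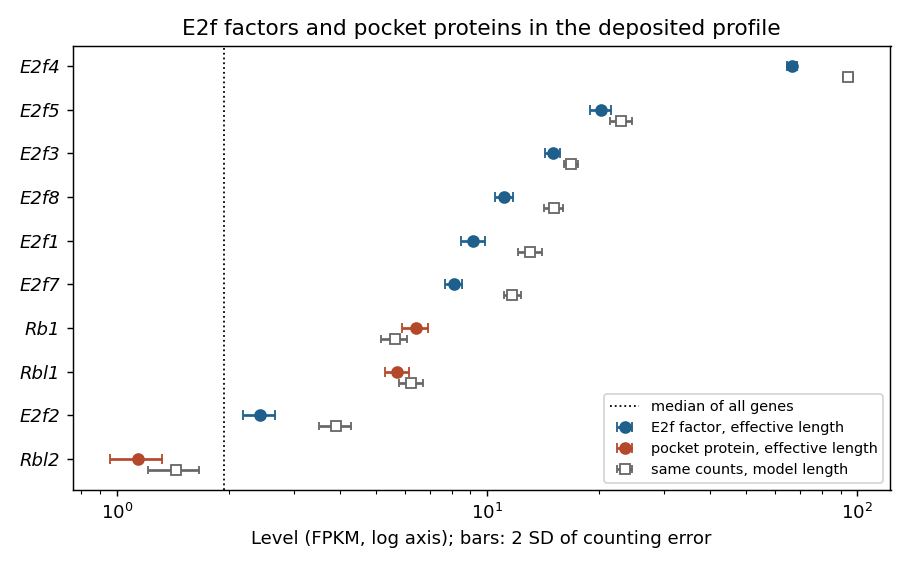
Level of each member in FPKM on a log axis, as deposited (circles, blue for E2f factors and red for pocket proteins) and recomputed from the same counts on the model length (open squares). Bars are 2 SD of counting error and the dotted line is the median of all genes, 1.94 FPKM, which E2f2 at 2.42 exceeds and Rbl2 at 1.14 does not.

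The deposited FPKM uses an effective length, which departs from the model length by a factor that differs between genes. For the members the factor ran from 0.878 for Rb1 to 1.61 for E2f2, around a median of 1.27 over all genes. A GENCODE transcript within 10% of the model length, from which GC content was taken, was found for 9 members, all but E2f1, whose nearest transcript has 2732 nt against a model of 2460 nt. Rb1 and Rbl1 had the lowest GC contents, 41.2% and 42.1%, with factors of 0.878 and 1.09. E2f2 and E2f4 had the highest, 56.6% and 56.1%, with factors of 1.61 and 1.42. On the model length 9 members were higher and Rb1 was lower, at 5.62 FPKM, and Rbl1 at 6.23 then stood above it. The ratio of Rb1 to Rbl1 became 0.902 (0.807 to 1.01), so the order of these 2 genes is set by the length used. No other neighbours changed place. E2f2 had 3.89 FPKM and E2f4 had 94.6 on the model length, and its ratio to E2f5 was 4.11 (3.83 to 4.42). The ratio of the summed E2f factors to the summed pocket proteins was 13.4.

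**Figure D3:**
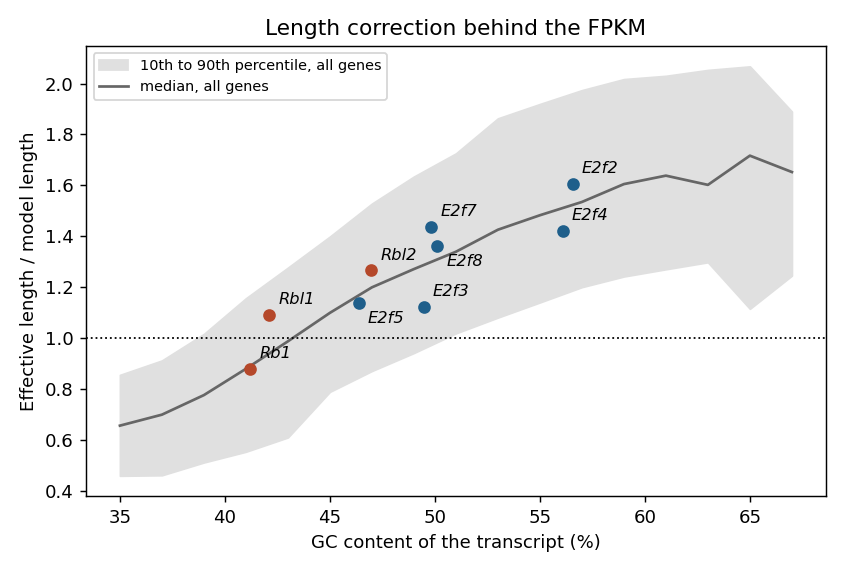
Ratio of effective to model length (vertical axis) against the GC content of the transcript in percent (horizontal axis) for 9 members, with the median and the 10th to 90th percentile over all genes in bins of 2 percentage points. Rb1 is the only member under a ratio of 1, at 0.878, and E2f2 has the highest, 1.61.

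The partners and regulators of the members were taken from lists, whose counts stand beside the 56.0% of all genes with at least 1 FPKM. Both DP partners, which E2f1 to E2f5 need to bind DNA, were present, Tfdp1 at 92.7 FPKM (90.2 to 95.3, and 139.7 on the model length) and Tfdp2 at 14.9 (14.3 to 15.5). Tfdp1 was 1.39 times E2f4 (1.34 to 1.45). The MuvB core joins E2f4 or E2f5 and Rbl1 or Rbl2 in the DREAM complex, which represses cell cycle genes, and in cycling cells it binds Mybl2 and Foxm1 instead. All 7 genes of that list passed 1 FPKM. Rbbp4, a histone chaperone that also serves other complexes, had 139 FPKM and Mybl2 had 77.0 (136 on the model length). Foxm1 had 12.4 FPKM, Lin54 12.3, Lin9 9.28, Lin52 8.13 and Lin37 3.32 (5.54 on the model length). The 4 Lin genes thus lay in the range of the E2f factors other than E2f4, and Lin37 lay above Rbl2 and E2f2.

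The kinases that phosphorylate pocket proteins are cyclin D with Cdk4 or Cdk6 and cyclin E or A with Cdk2. All 8 measured genes of that list passed 1 FPKM, and their median was 38.1, above every member but E2f4. Cdk4 had 209 FPKM and Cdk6 had 9.16, a ratio of 22.8 (21.2 to 24.6). Ccna2 had 107 FPKM, Ccne1 84.8, Ccnd1 48.1, Cdk2 28.1, Ccne2 24.4 and Ccnd2 4.23. On the model length Ccne1, at 129 FPKM, stood above Ccna2, at 91.5, and Ccne2 had 15.6. Of the 7 inhibitors of these kinases, 6 passed 1 FPKM, and the list median was 5.83. The Cip and Kip inhibitors Cdkn1b, Cdkn1c and Cdkn1a had 31.2, 23.8 and 14.6 FPKM. On the model length Cdkn1c, at 44.9 FPKM, stood above Cdkn1b, at 32.4. The Ink4 inhibitors, which bind Cdk4 and Cdk6, were lower, with Cdkn2d at 5.83, Cdkn2a at 3.56 (6.33 on the model length), Cdkn2b at 1.47 and Cdkn2c at 0.241 from 7 counts. The Cdkn2a model cannot separate its Ink4a product from Arf, which is read from the same gene.

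All 11 co-repressors that pocket proteins recruit passed 1 FPKM, and their median was 28.3 (54.2 on the model length), with Rbbp7 at 210, Hdac1 at 154 (275 on the model length) and Hdac2 at 85.2. All 26 measured G1/S target genes did too, with a median of 59.9 FPKM (76.0 on the model length), a list that shares Ccne1, Ccne2 and Ccna2 with the kinases and Mybl2 with the MuvB list. The replication clamp Pcna had 329 FPKM, the helicase subunit Mcm7 had 124 (231 on the model length) and the ribonucleotide reductase subunit Rrm2 had 111. Of these 26 targets, 21 lay above every member but E2f4, 11 lay above E2f4, and 0 lay below E2f1. On the model length 22 of the 26 lay above E2f5, and fewer than 11 lay above E2f4, then at 94.6 FPKM.

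**Figure D4:**
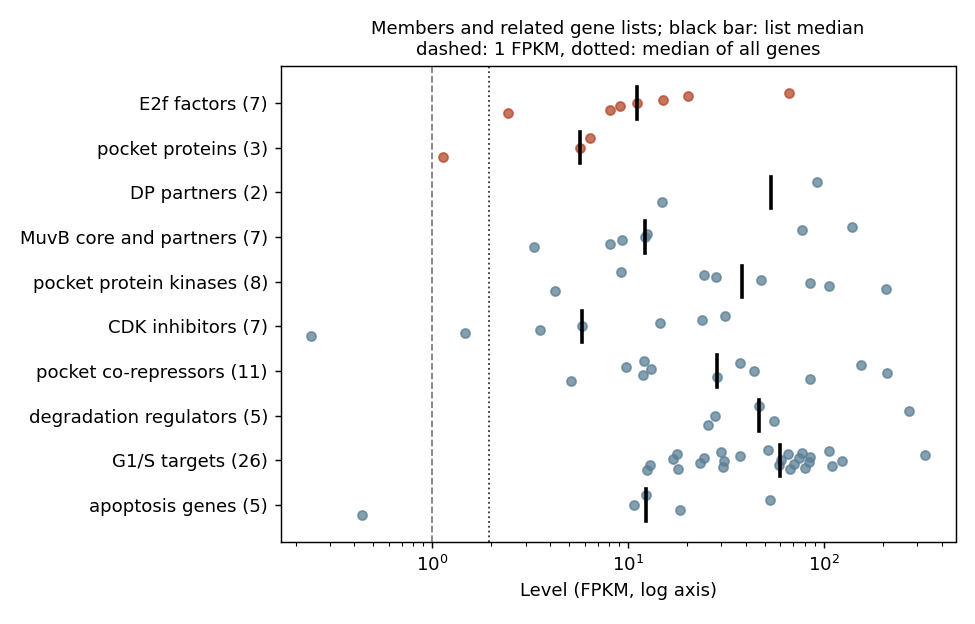
FPKM on a log axis of the members (red) and of the genes of 8 related lists (blue), with the number of measured genes in brackets and the list median as a black bar. The G1/S targets have a median of 59.9 FPKM, the E2f factors of 11.1 and the pocket proteins of 5.71.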

How the data were processed

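RNA was fragmented to about 200 nt and gel bands of 350 bp were taken as TruSeq libraries, per the labels' protocols. The submitters' processing notes name mm9 as the build and eXpress 1.1.1, Bowtie 1.1.2 and CASAVA 1.8.2 as tools, with settings not given in the sources used here. In the same table the authors deposited total counts, estimated counts and FPKM with bounds, per the file headers, with 1 gene model per symbol. Total, unique and estimated counts were equal in every row, so shared reads between similar genes are not recorded, and strand handling is not stated. It was checked that FPKM equals counts over effective length and total, within 0.001 of the value. One row naming no gene holds the total and was left out. No column names a library, so the planned comparison between groups, which assumed library values, was not run, and no test was made. No depth per library is known. Protein identities were planned and not computed.

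Members and lists were chosen with earlier results of these data known. All members were named, with every gene of lists of up to 9, and otherwise the 3 with the highest FPKM and up to 5 under 1 FPKM. Ccnd3, Uhrf1, Pmaip1, Gata6 and Map2 were not found under these symbols and were not analysed here, and some other list genes are not reported here. Of the symbols, 98.7% matched GENCODE M21, directly or by 1 synonym. Untranslated regions of at least 50 nt were used. Ratios carry exact binomial 95% intervals, which cover counting error only. Scripts were tested on simulated data. Software was scipy 1.17.1, pandas 2.3.3, numpy 2.4.6 and matplotlib 3.10.9 on Python 3.11.15.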

Additional observations from a re-analysis of the deposited data

How the results depend on the processing

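No paired analysis was possible because no column names a library. For the same reason no library could be left out and no other test was run. On the model length the levels in FPKM were 94.6 for E2f4, 23.0 for E2f5, 16.9 for E2f3, 15.1 for E2f8, 13.0 for E2f1, 11.7 for E2f7, 6.23 for Rbl1, 5.62 for Rb1, 3.89 for E2f2 and 1.44 for Rbl2, all outside their intervals. Estimated counts, and effective counts over the model length, gave the deposited levels. Neither is an independent check, since estimated counts equal total counts in every row and effective counts carry the same length correction. Of 15 gene lists, 12 kept all counts within 1.5 times. Of the fibroblast markers, 0 had at least 5 FPKM, 2 had at least 1 on the model length and 4 had at least 10 counts. Of the primitive endoderm markers, 2 had at least 10 counts. Of the neural markers, 0 had at least 5 FPKM and 2 had at least 10 counts. The shorter ATTTA was found in 10 members and the longer TTATTTATT in 2, and with the shortest region TATTTAT was found in 5, where 19.9% of genes have it. AGCACTT was found in 3 members with the shortest region, where 9.80% of genes have it, an alternative added after the data were seen. Without TTTCCCGC, 2 of the 7 members with a window had a promoter match, against 1.33% of genes. Depth limits Rbl2 most, whose interval spans 15.9% of its level on either side, against 3.06% for E2f4.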

Other observations

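The genes that control the turnover of E2f factors and of their regulators were all present. Cks1b, a small partner of cyclin-dependent kinases that the ubiquitin ligase Skp2 needs, had 273 FPKM, and 200.1 on the model length. Skp2 itself had 27.8 FPKM. Fbxo5 (Emi1), an inhibitor of the anaphase-promoting complex and a known E2f target, had 55.5 FPKM, and Fzr1 (Cdh1), an activator of that complex, had 25.7 (41.8 on the model length). Ccnf, the F-box protein known to mark E2f1, E2f7 and E2f8 for degradation among other substrates, had 47.0 FPKM, above each of those 3 genes (9.15, 8.13 and 11.1). All 5 genes of this list had at least 5 FPKM, against 38.3% of all genes.

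Genes that link E2f1 to apoptosis were uneven. The BH3-only genes Bbc3 (Puma) and Bcl2l11 (Bim) had 18.3 and 12.3 FPKM, and the apoptosome scaffold Apaf1 had 10.7. Trp73, the p53 relative that E2f1 is known to induce, had 0.438 FPKM (0.331 to 0.546) from 67 counts, below all 10 members.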
